A study of Homo sapiens with 4 samples.

Results

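The 10 genes described belong to the circadian clock: CLOCK, ARNTL (also called BMAL1), PER1, PER2, PER3, CRY1, CRY2, DBP, TEF and BHLHE40. Their RNA levels were compared between neuroblastoma cells with and without METTL14 knockdown. They were taken by symbol, as 10 of the 60671 Ensembl genes in the count table, and all 10 were among the 16309 genes expressed highly enough to test. RNA was sequenced from the established human neuroblastoma line SK-N-BE(2), as 2 libraries with a control hairpin (shNC) and 2 libraries with a hairpin against METTL14 (shMETTL14). Both groups came from the same line. The study's methods describe its knockdown cells as stable populations made with a pLKO.1 lentiviral vector and selected with puromycin. That account names neither the control vector nor the sequenced libraries. METTL14 is a subunit of the methyltransferase that deposits N6-methyladenosine (m6A) on RNA. The study used more than 1 METTL14 hairpin, and the labels do not say which was sequenced, so an effect of the hairpin sequence cannot be told apart from an effect of the knockdown. The labels do not say whether the libraries of a group came from separate cultures, so the p-values measure only the spread between these libraries. Neither a time of harvest nor a synchronisation of the cells is given in the sources used here. The values are therefore levels in an undated bulk culture, in which fewer cells of a type and less RNA per cell cannot be told apart, and not a rhythm.

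The clock is a feedback loop of transcription. CLOCK and ARNTL pair and activate genes through E-box elements, among them their own repressors, the PER and CRY proteins, and the output factor DBP. PER and CRY proteins gather in the nucleus and shut CLOCK and ARNTL off until they are degraded, while BHLHE40 competes at the E-box and DBP and TEF act through D-box elements. A second loop sets ARNTL itself through ROR elements, which RORs activate and NR1D proteins repress. Inhibition of m6A methylation is known to slow this loop in cultured cells.

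To show where the members carry the elements of this loop, their promoter windows (250 bases before to 50 bases after each RefSeq start, GRCh38.p14) were searched on both strands. The words were CACGTG for the E-box, CACGTT for the E-prime-box, TTATGTAA or TTACGTAA for the D-box, and TAGGTCA or TGGGTCA for the ROR element. The sites below are read 5′ to 3′ on the strand of the gene, with the matched letters in capitals. A site reading AACGTG is the E-prime-box on the other strand.
PER1 E-box: acccaggtcCACGTGcgcccgtgt
BHLHE40 E-box: tccaaCACGTGagactcatg
TEF E-box, first start: cgacagctcCACGTGctgcagctg
TEF E-box, second start: ctggccccgCACGTGtctatctta
PER2 E-prime-box: gcgcgcggtCACGTTttccactat
CRY1 E-prime-box: cacttcagaAACGTGaggtgccgg
PER2 D-box: cgctgcggcTTACGTAAccgccgccg
PER3 D-box: gcccgcgcgTTATGTAAcgcgccccg
ARNTL ROR element: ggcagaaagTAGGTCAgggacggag

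The PER1 site lay at chr17:8152563-8152586 on the minus strand, 173 bases before the start. The BHLHE40 site lay at chr3:4979187-4979206 on the plus strand, 245 bases before the start and at the edge of the window. The TEF sites lay at chr22:41367251-41367274 and chr22:41381740-41381763 on the plus strand, 195 and 193 bases before their 2 starts. PER2 held its E-prime-box at chr2:238288793-238288816 and its D-box at chr2:238288597-238288622, both on the minus strand, the latter 3 bases before the start. The CRY1 site lay at chr12:107093624-107093647 on the minus strand, and the PER3 site at chr1:7784105-7784130 on the plus strand. The ARNTL site lay at chr11:13277811-13277835 on the plus strand, 30 bases after the start. An E-box was present in 3 of the 10 members and in 8.77% of the 27305 genes with a window. The E-prime-box was present in 4 members against 6.44% of genes, the D-box in 2 against 1.27%, and the ROR element in 3 against 6.94%. CLOCK and CRY2 each held an E-prime-box and a ROR element, and the DBP window held none of these words. These matches are descriptions of letters in a window, and many other basic helix-loop-helix factors use the same E-box word.

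The targeted gene followed the labels. METTL14 had 753 and 754 counts in shNC libraries 1 and 2, and 303 and 321 counts in shMETTL14 libraries 1 and 2. Its level fell to 41.7% of the control, or -1.26 ± 0.0832 as log2 fold change (SE, adjusted p = 3.64e-11, edgeR quasi-likelihood test). Depth was even, at 18925786 to 19886214 counts in genes per library. All 8 markers of the noradrenergic state of neuroblastoma were expressed, with a summed level of 4771 to 4816 CPM (counts scaled to a fixed library size) in shNC and 4970 to 5022 CPM in shMETTL14. MYCN, an amplified oncogene in this line, made up most of that sum, and without it the other 7 summed to 2175 to 2179 CPM in shNC and 1818 to 1828 CPM in shMETTL14. All 8 passed the test, 2 higher and 6 lower, although PHOX2A did not without shNC library 2 (-0.092, log2 scale) or shMETTL14 library 2 (-0.13). Of 6 mesenchymal markers, 5 could be tested, of which 1 was higher and 4 were lower, and their summed level was 685 to 704 CPM in shNC and 679 to 698 CPM in shMETTL14. Among the lower ones, TWIST1 missed the threshold with DESeq2 (adjusted p = 0.133), without shNC library 1 (-0.070) and without either shMETTL14 library (-0.13 and -0.14), YAP1 was given no adjusted p by DESeq2 and missed it without shNC library 1 (-1.72) or shMETTL14 library 2 (-1.09), and CD44 missed it without shMETTL14 library 1 (-0.13). The mesenchymal factor PRRX1 had 0 to 3 counts in any library and YAP1 had 0 to 16. The part of these shifts in the clock gene values was not tested.

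METTL14 knockdown was accompanied by higher ARNTL, BHLHE40 and PER3 and by lower DBP. ARNTL rose to 202% and DBP fell to 43.9% of its control level, BHLHE40 rose to 173% and PER3 to 138%. CLOCK, PER1, PER2, CRY1, CRY2 and TEF did not pass the test. Calls were made at an adjusted p under 0.05 over all genes tested. Thus 4 of the 10 members passed (40%), a share below the 52.5% of all tested genes that did. The members called higher numbered 3, where 27.2% of tested genes were higher, and 1 was called lower, where 25.3% were lower. Over all genes this was 4438 higher and 4123 lower, which became 3550 higher and 4961 lower when the libraries were scaled by their upper quartile. ARNTL and DBP also changed by at least 2-fold, a rule that 8.79% of tested genes met. The count of 2 fell to 1 without shNC library 2 or without shMETTL14 library 2, since ARNTL lay at the limit. The libraries of the groups did not overlap in 8 of the 10 members, against 75.5% of tested genes. The median log2 fold change of the 10 members was 0.16, against -0.00095 over all tested genes, and the median absolute change was 0.18 against 0.30. The median of the members was 0.057 without shMETTL14 library 1 and 0.089 when scaled by the upper quartile. With DESeq2, which called 33.9% of its genes, the number of members called was again 4.

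**Figure D1:**
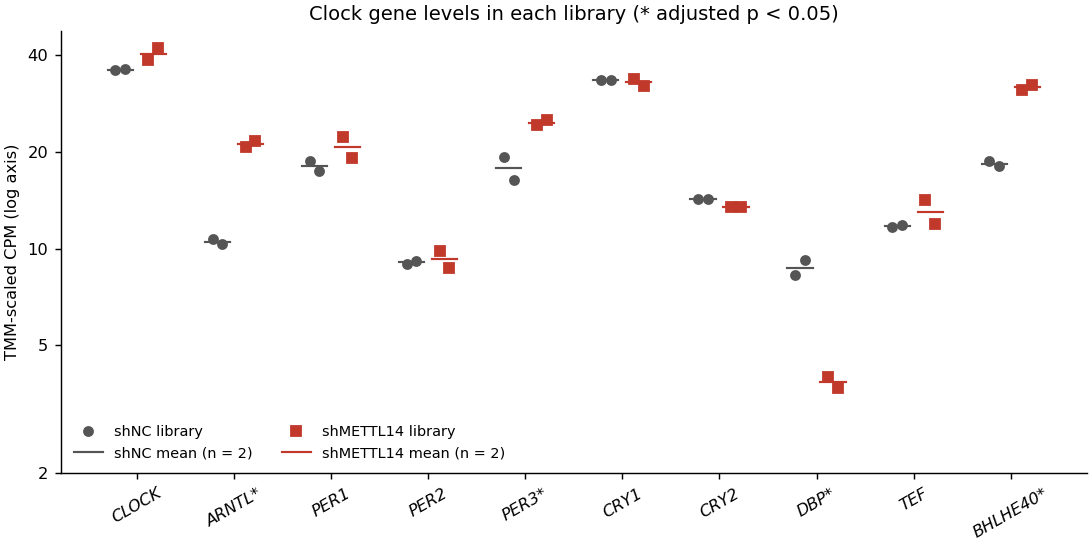
Level of each clock gene in each library, in TMM-scaled CPM on a log axis. Grey circles are shNC libraries, red squares are shMETTL14 libraries, lines are group means (n = 2), and asterisks mark an adjusted p under 0.05. ARNTL, BHLHE40 and PER3 lie higher in shMETTL14 (21.2 against 10.5 CPM for ARNTL) and DBP lies lower (3.84 against 8.73 CPM).

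Of the activators of the loop, ARNTL passed the test and CLOCK did not. ARNTL (ENSG00000133794, chr11:13276652-13387266, plus strand in GRCh38) had 213 and 198 counts in the shNC libraries and 405 and 418 counts in the shMETTL14 libraries. Every shMETTL14 library lay well above both controls. Its level rose from 10.5 ± 0.245 CPM to 21.2 ± 0.732 CPM (SD, n = 2 each), or 1.01 ± 0.101 as log2 fold change (SE, adjusted p = 2.45e-08 by edgeR). Of all genes tested, 3.07% had a larger increase. The change ranged from 0.98 to 1.05 with any library left out. ARNTL shares no exon bases with another annotated gene.

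CLOCK (ENSG00000134852, chr4:55427903-55547138, minus strand), the partner of ARNTL, had 718 and 693 counts in shNC and 759 and 811 counts in shMETTL14. The groups did not overlap, at 36.1 ± 0.118 CPM and 40.5 ± 2.39 CPM (SD, n = 2), but the shMETTL14 libraries lay further from each other than the shNC libraries did. The log2 fold change was 0.16 (SE 0.0711, adjusted p = 0.058 by edgeR) and missed the threshold. Without shMETTL14 library 1 it was 0.23 and passed, with an adjusted p of 0.0396 by edgeR.

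Among the PER repressors, PER3 passed the test and PER1 and PER2 did not. PER3 (ENSG00000049246, chr1:7784320-7845177, plus strand) had 386 and 314 counts in shNC and 475 and 483 counts in shMETTL14. The shNC libraries differed from each other by more than the shMETTL14 libraries did, but the groups stayed apart. The level rose from 17.9 ± 2.1 CPM to 24.7 ± 0.592 CPM (SD, n = 2), or 0.46 ± 0.0937 as log2 fold change (SE, adjusted p = 2.63e-04 by edgeR). It was 0.35 without shNC library 2 and 0.58 without shNC library 1, and passed the test in each case. On the opposite strand, exons of UTS2 cover 868 bases (10.7%) of the PER3 exons, and UTS2 had 0 counts in every library. An antisense transcript covers 482 bases (5.95%) and had 1 to 3 counts.

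PER1 (ENSG00000179094, chr17:8140472-8156506, minus strand), the PER gene that responds fastest to outside signals, had 373 and 334 counts in shNC and 437 and 369 in shMETTL14. The lower shMETTL14 library lay close to the upper shNC library once scaled for depth, at 18.1 ± 0.899 CPM and 20.7 ± 2.22 CPM for the group means (SD, n = 2). The log2 fold change was 0.20 (SE 0.0968, adjusted p = 0.0909 by edgeR). Without shMETTL14 library 2 it was 0.31 and passed, with an adjusted p of 0.0185 by edgeR. PER2 (ENSG00000132326, chr2:238244038-238290102, minus strand), which carries much of the repressor activity of the family, had 179 and 175 counts in shNC and 192 and 168 in shMETTL14. The groups overlapped, and the difference of 0.03 in log2 (SE 0.128, adjusted p = 0.847 by edgeR) turned negative, to -0.034, when scaled by the upper quartile.

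The cryptochromes, the stronger repressors of CLOCK and ARNTL, showed the smallest differences with PER2. CRY1 (ENSG00000008405, chr12:106991364-107093829, minus strand) had 671 and 643 counts in shNC and 664 and 617 counts in shMETTL14. Its libraries overlapped between groups, and the log2 fold change was -0.03 (SE 0.074, adjusted p = 0.78 by edgeR). CRY2 (ENSG00000121671, chr11:45847118-45883248, plus strand) had 284 and 274 counts in shNC and 265 and 260 counts in shMETTL14. The replicates of CRY2 lay close together, at 14.3 ± 0.0426 CPM and 13.5 ± 0.0175 CPM (SD, n = 2), so the groups did not overlap. The difference of -0.08 on the log2 scale was nevertheless smaller than the SE of 0.103 that the model gave it (adjusted p = 0.55 by edgeR). Of all genes tested, 94.9% had a larger absolute change than CRY1 and 85.5% a larger one than CRY2.

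Of the related output factors DBP and TEF, activators that bind the D-box, DBP passed the test and TEF did not. DBP (ENSG00000105516, chr19:48630030-48637438, minus strand) is a textbook direct target of CLOCK and ARNTL. It had 165 and 176 counts in shNC and 78 and 71 counts in shMETTL14, with no overlap between groups. Its level fell from 8.73 ± 0.646 CPM to 3.84 ± 0.208 CPM (SD, n = 2), or -1.18 ± 0.162 as log2 fold change (SE, adjusted p = 2.31e-06 by edgeR), or 2.27-fold lower. Of all genes tested, 4.73% had a larger decrease. The change ranged from -1.26 to -1.10 with any library left out. Exons of SPHK2, a sphingosine kinase gene on the opposite strand, cover 661 bases (10.1%) of the DBP exons. SPHK2 had 236 and 238 counts in shNC and 325 and 257 in shMETTL14, so its counts were not lower. The strand setting of the counting is not given in the sources used here, and without strand the reads of such partners cannot be told apart where they overlap.

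TEF (ENSG00000167074, chr22:41367333-41399326, plus strand) had 233 and 227 counts in shNC and 277 and 230 in shMETTL14. Only shMETTL14 library 1 stood well above the controls. The log2 fold change was 0.15 (SE 0.116, adjusted p = 0.292 by edgeR), and it was 0.03 to 0.27 with any library left out. BHLHE40 (ENSG00000134107, chr3:4979116-4985323, plus strand), also called DEC1, represses at the E-box and responds to many signals besides the clock, among them hypoxia. It had 373 and 346 counts in shNC and 612 and 623 counts in shMETTL14. The groups were well apart, at 18.4 ± 0.456 CPM and 31.8 ± 0.788 CPM (SD, n = 2). The log2 fold change was 0.79 (SE 0.0829, adjusted p = 5.34e-08 by edgeR), and 5.36% of tested genes had a larger increase.

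**Figure D2:**
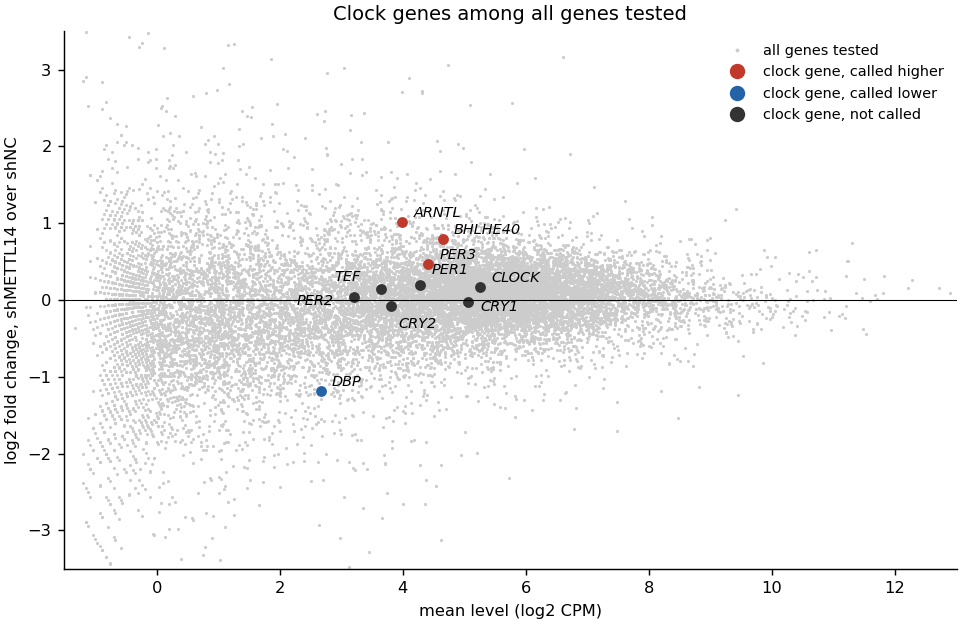
Log2 fold change (shMETTL14 over shNC) against mean level (log2 CPM) for all 16309 genes tested, with the clock genes drawn large: red for called higher, blue for called lower, black for not called. The vertical axis ends at 3.5 in each direction and leaves 38 genes outside. Of all genes tested, 9.48% had a larger absolute change than ARNTL (1.01) and 6.79% a larger one than DBP (-1.18). CRY1 (-0.03) and PER2 (0.03) lie at the centre of the cloud.

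Levels can be set side by side between genes only per length, and the order depended on the length used. Taken as CPM per kilobase of the union of annotated exons (FPKM, computed from the counts), CRY1 was highest in shNC cells at 6.64 ± 0.012 FPKM, followed by BHLHE40 at 4.79 ± 0.119 FPKM and CLOCK at 3.07 ± 0.0099 FPKM (SD, n = 2 each). PER1 had 2.58 FPKM, TEF 2.50 FPKM, CRY2 2.30 FPKM and PER3 2.21 FPKM, and the lowest were ARNTL at 1.56 FPKM, DBP at 1.34 FPKM and PER2 at 1.32 FPKM. Neighbours in this order were apart in both shNC libraries except PER1 and TEF, CRY2 and PER3, and DBP and PER2. Per kilobase of the longest coding transcript, a length chosen after the data were seen, CRY1 at 10.29 CPM and BHLHE40 at 5.30 CPM again led and PER2 at 1.42 CPM was again lowest. DBP at 3.92 CPM and ARNTL at 3.77 CPM then stood above CLOCK at 3.504 CPM per kilobase. In shMETTL14 cells ARNTL had 3.15 ± 0.109 FPKM against 3.44 ± 0.203 FPKM for CLOCK, but 7.60 against 3.93 CPM per kilobase of transcript. BHLHE40 stood above CRY1 on the first scale, at 8.29 ± 0.205 against 6.52 ± 0.259 FPKM, and below it on the second, at 9.16 against 10.1 CPM per kilobase. DBP had 0.586 ± 0.0318 FPKM in shMETTL14, or 1.72 CPM per kilobase of transcript, against 1.45 for PER2 on the second scale. Which of ARNTL and CLOCK, or of BHLHE40 and CRY1, was the more abundant in knockdown cells cannot be told from these counts. The change of each gene between groups uses no length, although a shift between its transcripts of unlike length was not tested.

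To ask whether related genes kept their balance, the ratio of their counts was taken within each library, where scaling has no part. The ratio of DBP to TEF was 0.708 and 0.775 in the shNC libraries and 0.282 and 0.309 in the shMETTL14 libraries, a difference of -1.33 in the mean log2 ratio. The ratio of BHLHE40 to BHLHE41, a close relative with the same kind of repressor activity, was 3.55 and 4.07 in shNC and 13.02 and 31.2 in shMETTL14. That difference of 2.41 in log2 ratio was large beside the SD of 0.89 between the shMETTL14 libraries, but it was 1.78 without shMETTL14 library 2 and 3.03 without shMETTL14 library 1. In shMETTL14 the mean log2 ratio of PER3 to PER2 was 0.44 higher and that of PER1 to PER2 was 0.17 higher, against pooled SDs of 0.17 and 0.07. The ratio of CLOCK to its stand-in NPAS2 was 0.38 higher, although NPAS2 had no more than 30 counts in a library. The ratio of ARNTL to ARNTL2 was 0.17 higher and that of CRY1 to CRY2 was 0.05 higher, against pooled SDs of 0.10 and 0.04. With 1 library left out the difference ranged from 0.31 to 0.57 for PER3 to PER2, from 0.10 (without shNC library 2) to 0.23 for PER1 to PER2 and from 0.24 (without shNC library 1) to 0.51 for CLOCK to NPAS2. It ranged from 0.095 (without shMETTL14 library 2) to 0.25 for ARNTL to ARNTL2, which was also 0.10 without shNC library 2, while for CRY1 to CRY2 it was lowest without shMETTL14 library 1 (0.011) and highest without shMETTL14 library 2 (0.090). The two-sided exact permutation p was 0.333 for each, which is the smallest that 2 libraries against 2 can give, so none of these differences reached significance by that test.

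**Figure D3:**
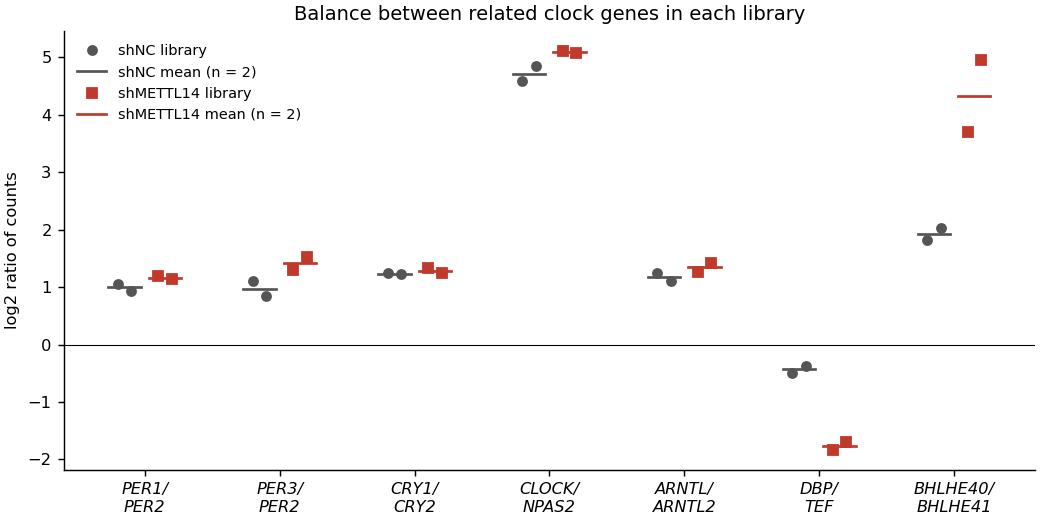
Log2 ratio of counts between related clock genes in each library, with grey circles for shNC, red squares for shMETTL14 and lines for group means (n = 2). The ratio of DBP to TEF had a mean of -0.43 in shNC and -1.76 in shMETTL14, and that of BHLHE40 to BHLHE41 had means of 1.93 and 4.33, with the widest spread of any pair, while that of CRY1 to CRY2 was 1.24 and 1.29.

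Beyond the 10 members, 22 further genes of the clock machinery were all expressed highly enough to test. Of these, 14 were called (63.6%, against 52.5% of all genes tested), 8 higher and 6 lower, and 8 were not called. Their median log2 fold change was 0.05, which turned to -0.014 when scaled by the upper quartile. Their median absolute change was 0.23, below the 0.30 of all tested genes. The second loop, which sets ARNTL, was represented by the ROR activators and the NR1D repressors. RORB, the ROR of neural tissue, had 383 and 436 counts in shNC and 933 and 900 counts in shMETTL14. It rose by 1.17 ± 0.082 (SE, log2 scale, adjusted p = 1.01e-10 by edgeR). RORA, another activator of that loop, was not called, with overlapping libraries. NR1D2, which represses ARNTL, fell by 0.25 (adjusted p = 7.48e-04 by edgeR), and its relative NR1D1 differed by -0.15 without passing the test (adjusted p = 0.379 by edgeR). Exons of THRA on the opposite strand cover 263 bases (9.49%) of NR1D1. THRA had 1278 and 1139 counts in shNC and 1270 and 1285 in shMETTL14. The part of that overlap in the NR1D1 value was not tested.

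Relatives of the members were called in both directions. ARNTL2, a paralog of ARNTL, had 90 and 92 counts in shNC and 168 and 156 counts in shMETTL14 and rose by 0.84 (SE 0.154, adjusted p = 9.26e-05 by edgeR). BHLHE41, the relative of BHLHE40, had 105 and 85 counts in shNC and 47 and 20 counts in shMETTL14, and fell by 1.49 ± 0.276 (SE, log2 scale, adjusted p = 1.02e-04 by edgeR). The knockdown libraries of BHLHE41 differed by more than the control libraries, and the change was -2.21 without shMETTL14 library 1 and -1.01 without shMETTL14 library 2. Exons of SSPN on the opposite strand cover 162 bases (4.1%) of BHLHE41, and SSPN went from 950 and 967 counts to 231 and 240. The part of that overlap in the BHLHE41 value was not tested. CIART, a repressor of CLOCK and ARNTL, rose by 0.42 (adjusted p = 0.00993 by edgeR) but was not called by DESeq2 (adjusted p = 0.131), nor without shNC library 2, where it was 0.33 (adjusted p = 0.085 by edgeR). NPAS2, a relative of CLOCK, HLF, a relative of DBP, and NFIL3, a repressor at the D-box, were not called. NFIL3 had 111 and 70 counts in shMETTL14 against 62 and 70 in shNC, and passed only without shMETTL14 library 2, at 0.75 (adjusted p = 0.00449 by edgeR).

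Genes for enzymes that act on clock proteins, and TIMELESS, changed by less than 2-fold. PRKAA1 and CSNK1E nevertheless moved by more than the median absolute change of all tested genes (0.30, log2 scale), and PPP1CA about equalled it. The kinase genes CSNK1E, which phosphorylates PER proteins, and GSK3B rose by 0.35 and 0.24 on the log2 scale (adjusted p = 4.1e-06 and 7.72e-05 by edgeR), and the phosphatase subunit gene PPP1CA rose by 0.30. FBXW11, a ubiquitin ligase adaptor for PER proteins, rose by 0.24, whereas its paralog BTRC fell by 0.21 (adjusted p = 0.0209 by edgeR). The AMP-activated kinase gene PRKAA1 fell by 0.45 and the ubiquitin ligase gene HUWE1 by 0.18. TIMELESS, whose product acts mainly at replication forks in mammals, fell by 0.19. CSNK1D, the other casein kinase of the loop, rose by 0.14 (adjusted p = 0.0143 by edgeR). BTRC kept its call in 5 of 7 other fits and CSNK1D in 4 of 7. CSNK1D missed the threshold without shNC library 2 (0.12) or shMETTL14 library 2 (0.12), and BTRC did so without shNC library 2 (-0.18), shMETTL14 library 1 (-0.20) or shMETTL14 library 2 (-0.21). The deubiquitinase gene USP2 was not called.

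**Figure D4:**
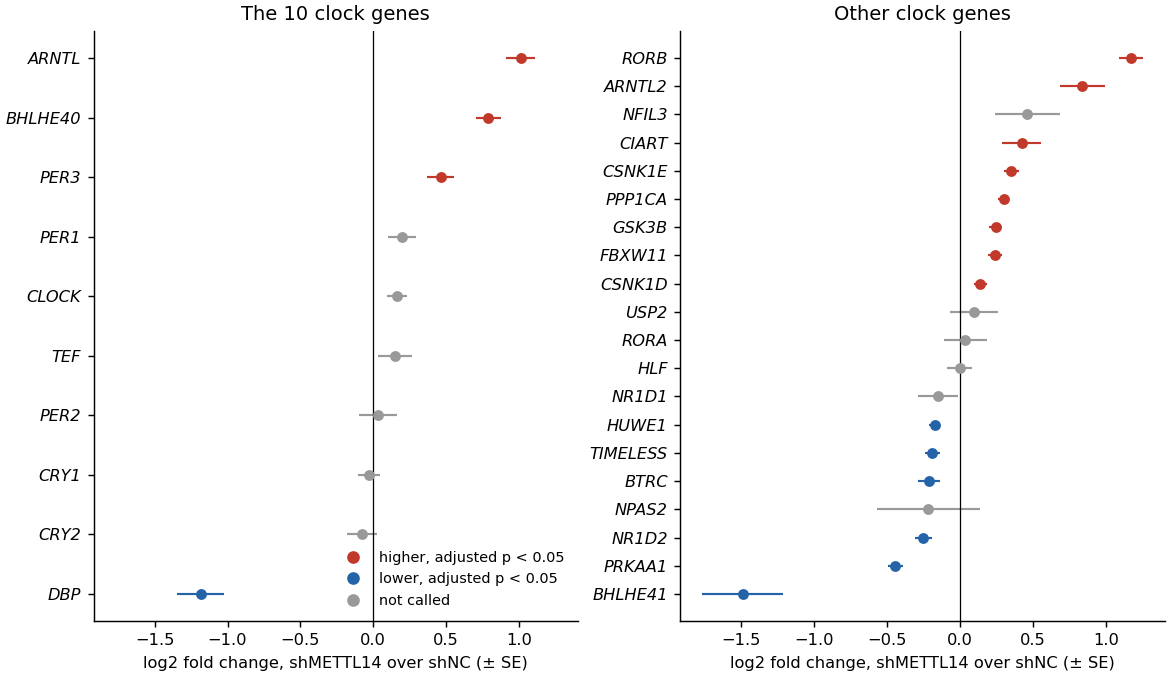
Log2 fold change (shMETTL14 over shNC, horizontal axis) with its SE for the 10 clock genes on the left and 20 of the 22 other clock genes on the right. Red points are called higher, blue points lower and grey points not called at an adjusted p under 0.05. The range runs from 1.01 for ARNTL to -1.18 for DBP on the left, and from 1.17 for RORB to -1.49 for BHLHE41 on the right.

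A list of 16 genes known as outputs or partners of the clock moved in both directions. Of the 15 that could be tested, 12 were called (80%, against 52.5%), 6 higher and 6 lower, and 3 (NAMPT, WEE1 and KLF11) were not. With DESeq2, which called 33.9% of all its genes, the number called was 7. It was 9 with upper quartile scaling and with library size alone, which called 52.2% and 52% of all genes. The median absolute change of the list was 0.33 on the log2 scale, against 0.30 over all tested genes. This list and that of the other clock genes were chosen with earlier results of these data known. PPARA, a nuclear receptor of fatty acid metabolism that CLOCK activates, had 386 and 365 counts in shNC and 129 and 107 counts in shMETTL14. It fell by 1.66 ± 0.12 (SE, log2 scale, adjusted p = 1.58e-10 by edgeR). TSC22D3, a gene induced by glucocorticoids, fell by 0.69, KLF10 by 0.56 and KLF9 by 0.38 (adjusted p = 2.4e-09, 1.8e-07 and 2.01e-04 by edgeR). The cell cycle genes CDKN1A and CCNB1 fell by 0.87 and 0.16. PPARGC1A, a coactivator of RORs, had 22 and 23 counts in shNC and 44 and 51 counts in shMETTL14 and rose by 1.08 (adjusted p = 0.00531 by edgeR). NOCT, a deadenylase-like clock output, rose by 0.44 and GADD45A by 0.33. PPARGC1A and NOCT were not called by DESeq2 (adjusted p = 0.0768 and 0.0916). POR, TIPIN and SIRT1, a deacetylase that acts on ARNTL and PER2, passed narrowly at 0.21, 0.22 and 0.16 (adjusted p = 0.0336, 0.0491 and 0.0447 by edgeR). Their calls held in 3, 1 and 2 of 7 other fits. POR and TIPIN also lost their calls without shNC library 1 (0.11 and 0.12) or shMETTL14 library 2 (0.17 and 0.14), and SIRT1 without shNC library 1 (0.13), shNC library 2 (0.18) or shMETTL14 library 2 (0.10). MYC was too low to test, with 1 count in each shNC library and 5 and 6 counts in the shMETTL14 libraries.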

How the data were processed

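Raw counts of reads for each Ensembl gene, without normalization, were deposited as 1 table for 2 shNC and 2 shMETTL14 libraries (total RNA, mRNA library kit, paired ends, NovaSeq). The submitters' processing notes name HISAT2 2.1.0, StringTie 1.3.6, HTSeq 0.13.5, edgeR and GRCh38, without roles. The annotation release and strand setting are not given in the sources used here, so reads of genes that overlap may be lost or credited to the partner. Lines naming no gene (19.1% to 19.9% of counts) were left out.

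Counts were tested with edgeR 4.0.16 in R 4.3.3 (quasi-likelihood F-test, TMM, filterByExpr minimum count 10 and total 15, group as the only term). Benjamini-Hochberg adjustment ran over the 16309 genes that passed, and calls needed an adjusted p under 0.05. SEs were derived from the F statistic. CPM and FPKM were computed from TMM-scaled library sizes, FPKM with the union of GENCODE exons. Levels per length of the longest coding transcript and the marker sum without MYCN were added after seeing the data. The common biological coefficient of variation was 3.45%. Intervals and SEs cover counting error and the spread of these libraries only. The mean chi-square per gene was 2.66 between the shNC and 2.21 between the shMETTL14 libraries, and 30.5 to 31.5 between groups, so no library was a copy of another. A two-sided exact permutation test of 2 against 2 libraries cannot go below 0.333. The procedure was also run on simulated counts, with the same spread for all genes and far fewer changed genes than were called here. That run therefore does not cover the setting of these data.

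Gene symbols were found for 42020 of 60671 IDs. ARNTL and ARNTL2 are listed as BMAL1 and BMAL2. Gene coordinates are from GENCODE 29 and promoter windows from RefSeq (GRCh38.p14), with windows found for 10 of 10 members. Named were all 10 members, METTL14, every gene called or too low to test in the lists, and the relatives paired with members. Some genes of the lists that were not called were named after their values were seen. Counts over the other clock genes cover the whole list, and 2 of its genes are not reported here singly. The members and lists were chosen with earlier results of these data known. The alternatives were DESeq2 1.42.0, other scalings, other filters, a replicate block and each library left out.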

Additional observations from a re-analysis of the deposited data

How the results depend on the processing

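With 4 libraries the calls rest on the spread that the model shares across genes, and small changes of genes with few counts could not be resolved. ARNTL, PER3, DBP and BHLHE40 kept their direction and their call in all 7 other fits and with each library left out. The members with at least a 2-fold change numbered 1 instead of 2 under the upper quartile, under library size alone and under a minimum of 10 counts in every library, since ARNTL went from 1.01 to 0.94, 0.97 and 0.99. That number was 1 to 2 with 1 library left out. The clock-controlled genes called numbered 12, and 7 with DESeq2. Over all genes, 8561 were called by edgeR and 5556 by DESeq2, and 1433 changed by at least 2-fold, against 904 with DESeq2 and 930 with the minimum of 10 counts. The same-numbered libraries share only a number (correlation of their deviations -0.0018). Under the replicate block 8926 genes were called, and CLOCK passed at 0.16 (adjusted p = 0.0478). With 1 library left out, where a lone library is assumed to vary like the other group, CLOCK ranged from 0.11 to 0.23, PER1 from 0.09 to 0.31, PER2 from -0.050 to 0.12 and CRY1 from -0.065 to 0.021. Values near 0 changed sign with upper quartile scaling and library size alone: PER2 (-0.034 and -0.012), RORA (-0.032 and -0.0094) and NAMPT (-0.061 and -0.039). NAMPT was -0.012 with the minimum of 10 counts, and HLF was 0.0044 with DESeq2 and 0.0082 with no filter. The median of the other clock genes was -0.014 with upper quartile scaling. With 1 library left out, it ranged from -0.019 to 0.088, RORA from -0.070 to 0.15, HLF from -0.016 to 0.024, USP2 from -0.022 to 0.21 and NAMPT from -0.063 to 0.077. Upper quartile scaling moved the median of all genes by -0.068. Among the 35 other genes of the lists that were followed singly, 23 comparisons of 8 genes lost a call in the other fits. The causes of these changes were not tested.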

Other observations

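The word GGACT, a common form of the sequence at which m6A is deposited, was counted in the longest coding transcript of each gene (GENCODE 29), as a description of the transcripts and not of methylation, which these counts do not measure. The median of 12788 tested coding genes was 0.927 copies per kilobase. Among the members called, ARNTL had 1.79 copies per kilobase (5 copies), BHLHE40 had 1.15 (4 copies), PER3 had 0.475 (3 copies) and DBP had 0.449 (1 copy). Among the members not called, CRY2 had 2.14, PER1 had 2.12, PER2 had 1.88, TEF had 1.14, CRY1 had 0.918 and CLOCK had 0.679 copies per kilobase. Of the 10, CRY2 and PER1 had the most copies per kilobase, followed by PER2 and ARNTL, and DBP had the fewest. Whether the number of copies goes with the changes was not tested.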
